A study of Arabidopsis thaliana with 6 samples.

Results

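The genes described here make very-long-chain fatty acids and turn them into the waxes and the cutin of the plant surface. They are 40 Arabidopsis thaliana genes given by name, 21 of which form the complete family of 3-ketoacyl-CoA synthases (KCS1 to KCS21). The remaining 19 cover the other elongase enzymes, wax and cutin synthesis, export to the surface and gene regulation. Genes were used where their normalized read counts averaged 10 or more over the 6 libraries, which left 30 of the 40 genes, among 19003 of 36917 genes in the whole table. That mean is the measure that chose the genes. KCS2, CYP86A4 and CER1 lay just inside the limit with means of 20.6, 23.1 and 39.7, and KCS21 and CER4 lay just outside with 8.12 and 7.42.

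RNA came from seedlings harvested on day 4, after 3 days of growth in darkness and 1 day in light. One group was 3 libraries labelled with the genotype bbx14-1, a line named for the B-box transcription factor gene BBX14, and the other was 3 wild-type (WT) libraries, all 6 in the Col-0 accession. All seeds had been sown on medium without sucrose, kept cold and dark for 3 days and given 2 h of white light (100 µmol m-2 s-1). Nothing in the labels gives the nature of the bbx14-1 lesion or more than 1 line, so the lesion and the line cannot be told apart. Reads per library, recovered from the normalized values, numbered 25505859 to 32621183 in the libraries labelled bbx14-1 and 20939505 to 32064650 in wild type.

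BBX14 (AT1G68520) itself showed no loss under the bbx14-1 label, with 649, 761 and 892 normalized counts against 539.9, 683 and 517 in wild type. The ranges of the groups overlapped, and the difference did not pass the test (log2 fold change 0.40, limma adjusted p = 0.0726). The labels give no position of the lesion, so this level does not check the label, and each direction below refers to the libraries as labelled. In TAIR10.1 the wax gene KCS6 lies 1424 bases from BBX14 on the same strand of chromosome 1, with 1 annotated gene between them.

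Plastids make fatty acids of ordinary length, which are exported and activated to acyl-CoA. On the endoplasmic reticulum an elongase cycle lengthens them: a KCS condenses the chain with malonyl-CoA, and KCR1, PAS2 and CER10 carry out the reduction, dehydration and second reduction. The KCS sets which chain lengths are made, while the other enzymes serve all of them. Epidermal cells turn the products into alkanes, alcohols and esters of the wax, make cutin from shorter hydroxylated chains, and export both to form the cuticle, and roots build the related polymer suberin.

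Among the 30 tested genes, the calls fell on condensing enzymes: KCS19, KCS1 and KCS16 rose in the libraries labelled bbx14-1 and KCS12 fell. Of the 15 tested genes of the other elongase steps, of wax or cutin formation, of export and of regulation, 0 passed limma's test or its voom alternative, and 3 had an unadjusted p under 0.05, as did 16.7% of all tested genes. Genes were tested with limma on log2(normalized count + 1), a scale that understates the change of low genes, with Benjamini-Hochberg adjustment over all 19003 genes, and an adjusted p under 0.05 was called. The 3 genes called higher and 1 called lower are 4 of 30, where 4.65% of all tested genes were called, 2.51% higher and 2.14% lower. The genes were chosen with earlier results of these data known, so this count is a description and no independent support. In RNA from whole seedlings, more cells of a type and more RNA per cell cannot be told apart.

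KCS19 (AT5G04530) changed most among the genes called higher. It had 2345, 2435 and 3159 normalized counts in the libraries labelled bbx14-1, against 1596, 1844 and 1719 in wild type. The groups did not overlap, although replicate 3 of the libraries labelled bbx14-1 stood well above the other two. The means were 2647 ± 446 in the libraries labelled bbx14-1 and 1719.6 ± 124 in wild type (SD, n = 3 each), and the log2 fold change was 0.61 (standard error 0.10, limma adjusted p = 0.000608). Leaving out any 1 library kept the call, with log2 fold changes of 0.48 to 0.69.

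KCS1 (AT1G01120), a condensing enzyme of wax synthesis, varied little within either group. It had 3203, 3048 and 2817 normalized counts in the libraries labelled bbx14-1 and 2143, 2216 and 2211 in wild type. Every library labelled bbx14-1 exceeded every wild-type library, and the wild-type values lay close together. Its log2 fold change was 0.46 (standard error 0.09, limma adjusted p = 0.00163), and it stayed called without any 1 library, at 0.42 to 0.51.

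KCS16 (AT4G34250), which lengthens already very long chains in the leaf surface wax, is a less abundant gene. It had 451, 516 and 460.2 normalized counts in the libraries labelled bbx14-1 and 298, 347 and 379 in wild type. The groups did not overlap, and its log2 fold change was 0.48 (standard error 0.13, limma adjusted p = 0.0267). Leaving out WT replicate 1 ended this call (0.39, limma adjusted p = 0.17), as did leaving out bbx14-1 replicate 2 (0.42, limma adjusted p = 0.127).

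KCS12 (AT2G28630) moved the other way. It had 672, 544 and 498 normalized counts in the libraries labelled bbx14-1, against 955, 947 and 1037 in wild type. The highest library labelled bbx14-1 was far below the lowest wild-type library. The means were 571 ± 89.9 in the libraries labelled bbx14-1 and 979.8 ± 49.6 in wild type (SD, n = 3 each), and KCS12 fell by 0.79 on the log2 scale (standard error 0.11, limma adjusted p = 9.76e-05), the smallest adjusted p of the 30 genes. It fell by 0.69 to 0.91 without any 1 library, called each time. All 4 calls depended on letting the variance follow a trend on the mean level: without that trend none of the 4 passed (limma adjusted p = 0.116 for KCS12 to 0.21 for KCS16).

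**Figure D1:**
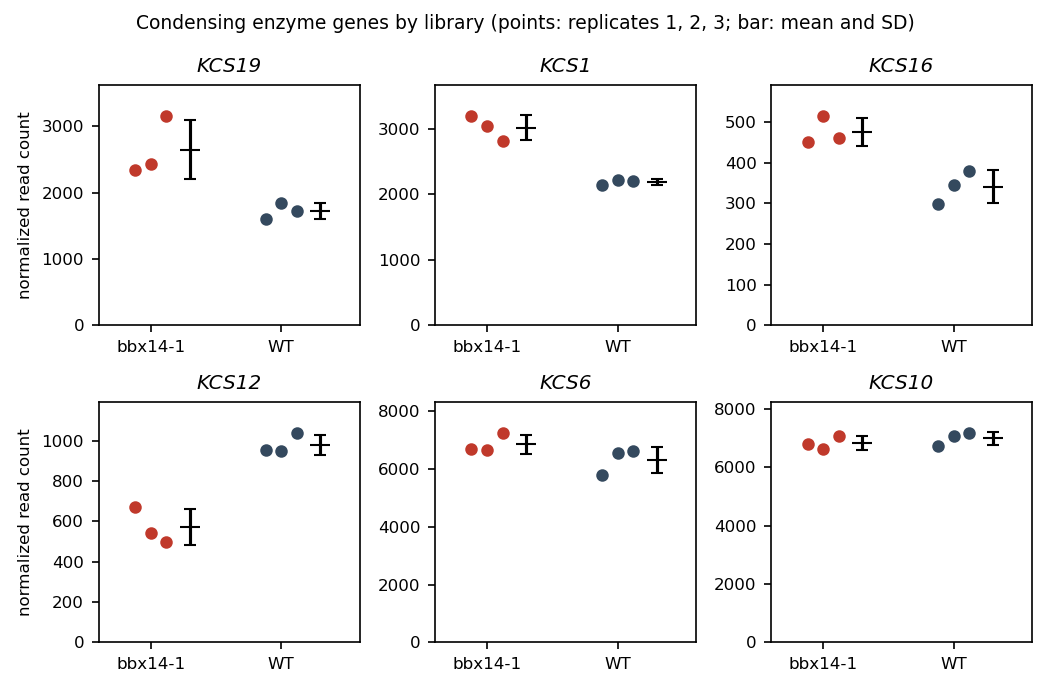
Normalized read counts of 6 condensing enzyme genes, with the 3 libraries labelled bbx14-1 (red) on the left and the 3 WT libraries (dark) on the right of each panel, and the mean and SD beside them. KCS19, KCS1 and KCS16 lie higher and KCS12 lower in the libraries labelled bbx14-1 with no overlap. The 2 most abundant genes KCS6 and KCS10 lie close together in both groups. KCS10 overlaps between the groups, and KCS6 nearly meets without overlap.

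The DNA just before these 4 genes is shown because they are the ones that were called, in both directions. Each line gives the 250 bases upstream of the annotated gene start, 5′ to 3′ on the strand of the gene, from the RefSeq genome TAIR10.1; the submitters name the build TAIR10. Capitals mark any of 4 short motifs searched on both strands: the L1 box of epidermal homeodomain factors (TAAATGCA or TAAATGTA), the G-box of light-regulated genes (CACGTG), the GCC box of ethylene-response factors (GCCGCC) and the CCAAT box (CCAAT). None of these overlaps another in its letters.
KCS19 (chr5:1293724-1293973, minus strand): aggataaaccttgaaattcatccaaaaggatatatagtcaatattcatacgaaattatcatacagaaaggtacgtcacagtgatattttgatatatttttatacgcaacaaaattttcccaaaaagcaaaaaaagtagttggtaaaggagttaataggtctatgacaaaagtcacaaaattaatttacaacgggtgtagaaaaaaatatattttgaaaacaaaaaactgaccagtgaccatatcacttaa
KCS1 (chr1:59216-59465, minus strand): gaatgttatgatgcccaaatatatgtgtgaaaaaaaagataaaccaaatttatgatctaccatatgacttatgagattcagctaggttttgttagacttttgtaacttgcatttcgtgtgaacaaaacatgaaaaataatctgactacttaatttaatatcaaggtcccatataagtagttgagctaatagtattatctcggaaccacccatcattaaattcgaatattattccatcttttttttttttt
KCS16 (chr4:16394350-16394599, plus strand): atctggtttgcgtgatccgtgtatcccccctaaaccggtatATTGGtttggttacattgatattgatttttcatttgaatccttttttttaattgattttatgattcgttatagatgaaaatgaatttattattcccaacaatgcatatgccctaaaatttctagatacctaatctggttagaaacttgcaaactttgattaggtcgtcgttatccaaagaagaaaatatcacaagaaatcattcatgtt
KCS12 (chr2:12277418-12277667, minus strand): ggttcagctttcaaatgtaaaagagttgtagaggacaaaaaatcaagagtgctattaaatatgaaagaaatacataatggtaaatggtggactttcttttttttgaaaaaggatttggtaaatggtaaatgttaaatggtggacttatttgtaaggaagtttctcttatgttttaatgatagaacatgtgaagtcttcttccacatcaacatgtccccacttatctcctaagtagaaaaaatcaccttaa
The sole match was a CCAAT box on the reverse strand in KCS16, 209 to 205 bases before the start. The windows of KCS19 and KCS1, which rose, and of KCS12, which fell, held none of the 4 motifs. None of the 4 windows overlapped another annotated gene.

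The other 11 tested condensing enzymes mostly had small positive fold changes that did not pass the test. KCS10 (FIDDLEHEAD), which keeps young epidermal surfaces from fusing, and KCS6 (CER6), the main condensing enzyme of stem wax, were the most abundant. KCS10 had 6804, 6614 and 7089 normalized counts in the libraries labelled bbx14-1 and 6737, 7074 and 7173 in wild type, with overlapping groups (log2 fold change -0.03, 95% interval -0.21 to 0.14, limma adjusted p = 0.897). KCS6 had 6671, 6635 and 7231 normalized counts in the libraries labelled bbx14-1 and 5798, 6542 and 6602 in wild type. These ranges did not overlap but nearly met, and the difference did not pass (log2 fold change 0.12, 95% interval -0.06 to 0.30, limma adjusted p = 0.551).

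KCS5 (CER60), a close relative of KCS6, had 869.9, 840.4 and 970.4 normalized counts in the libraries labelled bbx14-1 and 624, 811 and 765 in wild type (log2 fold change 0.29, limma adjusted p = 0.16). KCS20, which serves suberin and wax in roots and shoots, had 2178, 2257 and 2333 normalized counts in the libraries labelled bbx14-1 and 1727, 2232 and 1798 in wild type (log2 fold change 0.24, limma adjusted p = 0.188). The groups did not overlap in KCS5 and overlapped in KCS20. WT replicate 2 was the wild-type library nearest to the other group in both genes, and without it KCS20 passed (0.36, limma adjusted p = 0.0451) while KCS5 did not (0.37, limma adjusted p = 0.102). KCS2 (DAISY), the partner of KCS20 in suberin, was scarce in these seedlings, at 24.8, 19.3 and 33.0 normalized counts in the libraries labelled bbx14-1 and 11.8, 12.6 and 22.2 in wild type (log2 fold change 0.72, 95% interval -0.24 to 1.67, limma adjusted p = 0.474). That wide interval leaves its change unresolved at this depth.

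Of the remaining condensing enzymes, KCS9, KCS3 and KCS4 had higher counts in every library labelled bbx14-1 than in any wild-type library, without passing the test (log2 fold changes 0.17, 0.22 and 0.19, limma adjusted p = 0.348, 0.292 and 0.489). KCS9 averaged 2717 ± 237 normalized counts in the libraries labelled bbx14-1 and 2407 ± 139.9 in wild type, KCS3 925 ± 60.6 and 796 ± 82.2, and KCS4 371 ± 25.4 and 325 ± 8.6 (SD, n = 3 each). KCS8 averaged 3276 ± 172 normalized counts in the libraries labelled bbx14-1 and 2924 ± 280.2 in wild type, KCS11 514 ± 7.19 and 507 ± 18.4, and KCS13 203 ± 32.3 and 171 ± 30.5 (SD, n = 3 each). The groups of these last 3 genes overlapped, and 0.17, 0.02 and 0.25 were their log2 fold changes (limma adjusted p = 0.364, 0.958 and 0.538). KCS13 (HIC), known for its effect on stomatal number under high carbon dioxide, shares 28.9% of its 50-base windows with other places in the genome, so its count may hold reads of other genes. KCS8 shares 4.25% of its windows, and each of the 4 called genes shares none.

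Over the 15 tested condensing enzymes, 13 had a positive fold change, with a median of 0.22 on the log2 scale, while the other 15 genes had a median of 0.04 and all tested genes one of 0.0029. For 8 condensing enzymes every library labelled bbx14-1 lay above every wild-type library and for 1 it lay below; across all 30 genes these counts were 9 and 2, where such separation was seen for 10.4% of all tested genes above and 10.6% below. WT replicate 1 was the lowest of the 6 libraries for 17 of the 30 genes and for 15.5% of all tested genes, and its part in these counts was not tested beyond leaving it out. Without it the median over the 30 genes was 0.07 in place of 0.10, and KCS19, KCS1 and KCS12 were still called.

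**Figure D2:**
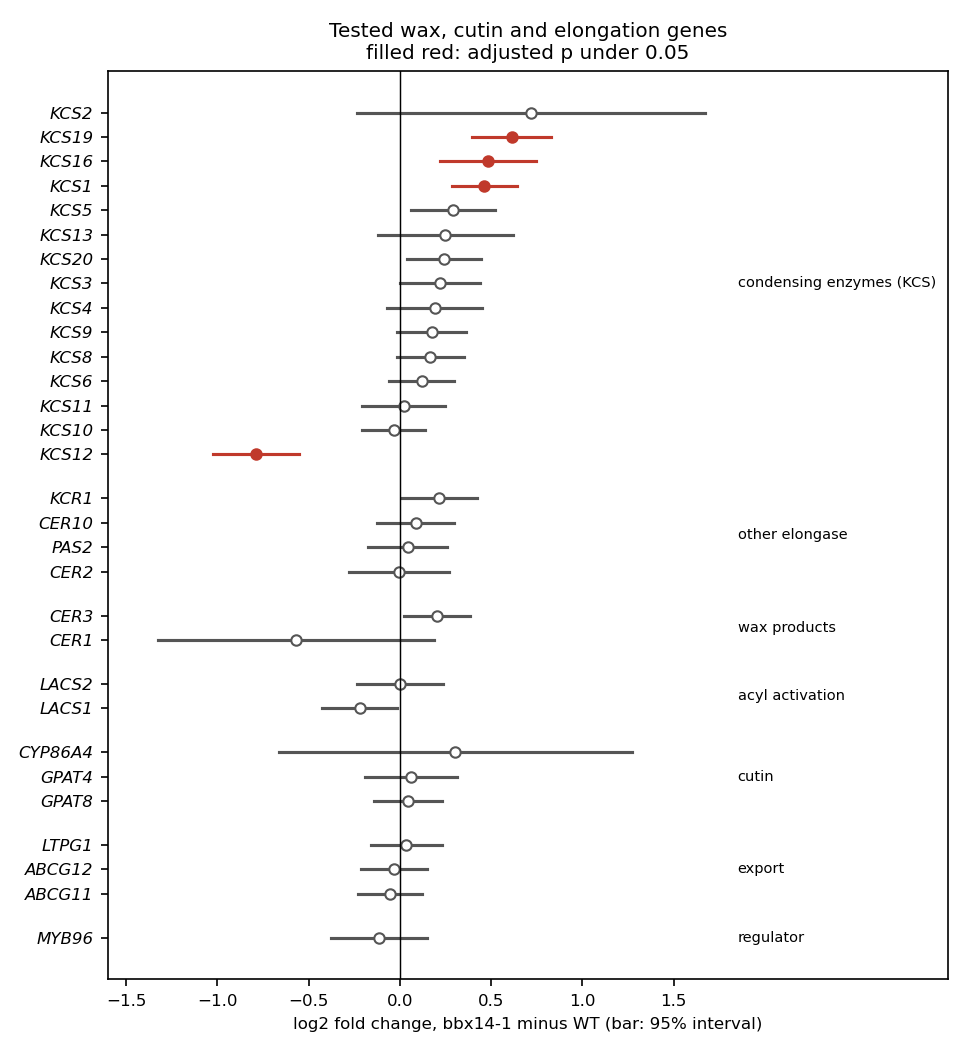
Log2 fold change (bbx14-1 minus WT, horizontal axis) of the 30 tested genes, grouped by role from top to bottom, with 95% intervals. Filled red points passed at an adjusted p under 0.05: KCS19, KCS16 and KCS1 to the right of 0 and KCS12 to the left, all in the condensing enzyme group.

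The share of each condensing enzyme in the family's transcripts was also taken, on a scale set by length. Normalized counts per kb of exon, summed over the 21 KCS genes, came to 13819 to 14741 in the libraries labelled bbx14-1 and 11856 to 13070.1 in wild type. KCS10 was the largest part, 21.4% ± 0.142 of that sum in the libraries labelled bbx14-1 and 24.5% ± 0.596 in wild type (SD, n = 3 each). KCS6 followed with 18.5% ± 0.295 in the libraries labelled bbx14-1 and 19.1% ± 0.325 in wild type. KCS1 made up 10.4% ± 0.956 in the libraries labelled bbx14-1 and 8.44% ± 0.316 in wild type, KCS19 8.88% ± 1.20 and 6.49% ± 0.242, and KCS12 1.64% ± 0.289 and 3.16% ± 0.174. KCS10 thus separated in share though its counts overlapped, and KCS6 had a lower mean share though its counts were higher. The shares sum to a whole, so a higher share of one gene lowers the others, and they are given as a description with no test.

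Across all 30 genes the level per kb varied widely. KCS10 led with 3031 ± 106 normalized counts per kb in the libraries labelled bbx14-1 and 3102 ± 101 in wild type, followed by KCS6 and by LTPG1, a lipid transfer protein anchored at the cell surface (2249.7 ± 135 in the libraries labelled bbx14-1 and 2201 ± 226 in wild type). The lowest were CER1, KCS2 and CYP86A4, at 8.53 ± 1.61, 12.6 ± 3.37 and 10.5 ± 1.92 per kb in the libraries labelled bbx14-1 and 13.6 ± 6.26, 7.59 ± 2.84 and 9.45 ± 6.27 in wild type. CER1 and CER3 act together to make alkanes, and CER3 stood far above CER1, with 1026 ± 50.6 normalized counts per kb in the libraries labelled bbx14-1 and 891 ± 43.1 in wild type.

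**Figure D3:**
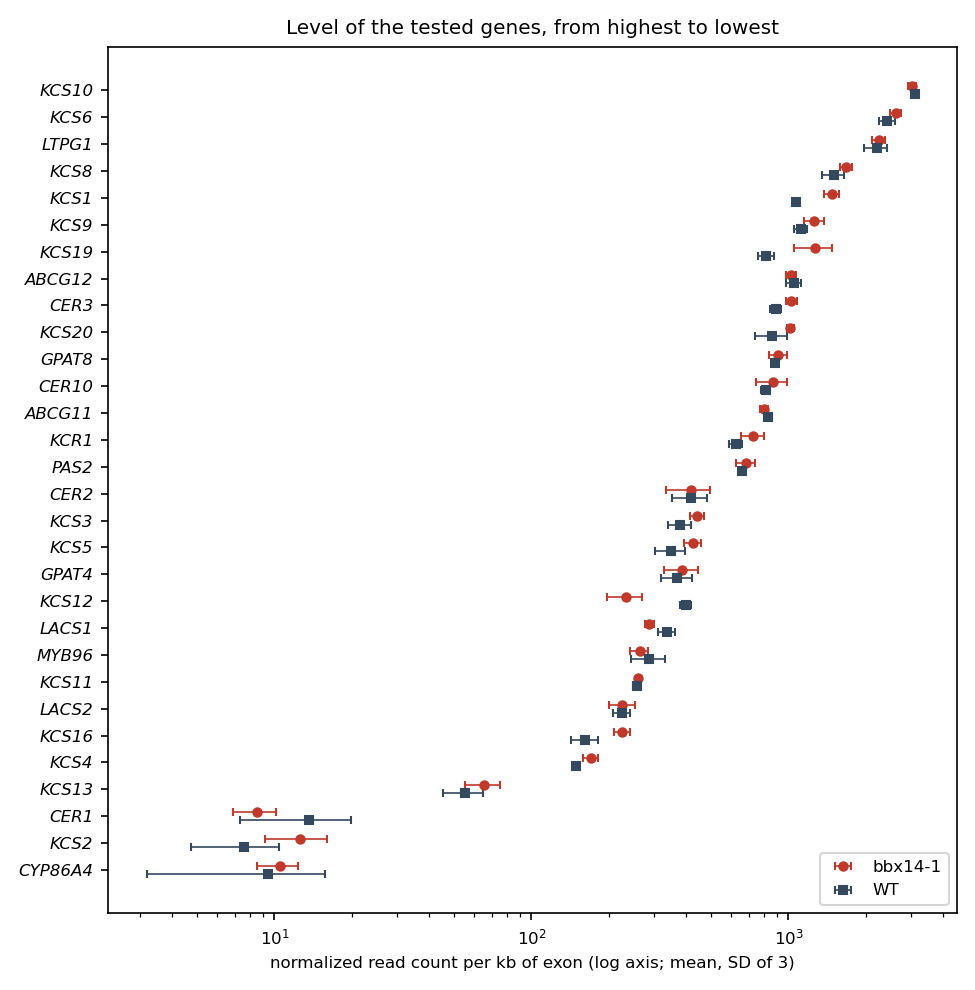
Normalized read counts per kb of exon (log axis) of the 30 tested genes, ordered from the highest to the lowest mean, with the mean and SD of the 3 libraries labelled bbx14-1 (red circles) and of the 3 WT libraries (dark squares). KCS10 and KCS6 lead at 3031 and 2622 per kb in the libraries labelled bbx14-1, and CER1, KCS2 and CYP86A4 form a separate low group.

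The genes for the rest of the elongase had small fold changes, and none of the 4 was called. KCR1, the ketoacyl-CoA reductase, had 1327, 1452 and 1184 normalized counts in the libraries labelled bbx14-1 and 1066, 1142 and 1197 in wild type (log2 fold change 0.22, 95% interval 0.01 to 0.42, limma adjusted p = 0.265). CER10, the enoyl-CoA reductase, had 1135, 1441 and 1155 in the libraries labelled bbx14-1 and 1167, 1209.6 and 1119 in wild type (log2 fold change 0.09, 95% interval -0.13 to 0.30, limma adjusted p = 0.748). Both sets of values overlapped. The dehydratase gene PAS2 and CER2, a partner protein that lets KCS6 make longer wax chains, averaged 719 ± 62.6 and 677 ± 132 normalized counts in the libraries labelled bbx14-1 and 696 ± 12.9 and 678 ± 105 in wild type (SD, n = 3 each). Their log2 fold changes were 0.04 and -0.01 (limma adjusted p = 0.896 and 0.988).

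In wax formation the alkane gene CER3 had 2513, 2771 and 2682 normalized counts in the libraries labelled bbx14-1 and 2184, 2336 and 2401 in wild type. The groups did not overlap, but the difference did not pass (log2 fold change 0.20, 95% interval 0.02 to 0.38, limma adjusted p = 0.221). CER1 had 33.6, 34.4 and 24.0 normalized counts in the libraries labelled bbx14-1 and 45.4, 72.9 and 28.2 in wild type, with overlapping groups (log2 fold change -0.57, 95% interval -1.33 to 0.19, limma adjusted p = 0.473). LACS1, which activates very long chains for wax, lay below every wild-type library without passing the test, at 861, 927 and 889 normalized counts in the libraries labelled bbx14-1 and 1015, 978 and 1135 in wild type (log2 fold change -0.22, limma adjusted p = 0.249). LACS2, the acyl-CoA synthetase of cutin synthesis, had 636, 728 and 580.2 normalized counts in the libraries labelled bbx14-1 and 597, 647 and 696 in wild type, with overlapping groups (log2 fold change -0.00082, 95% interval -0.23 to 0.23, limma adjusted p = 0.999).

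Cutin acyltransferases and exporters had fold changes near 0. GPAT8 had 1667, 1939.9 and 1872 normalized counts in the libraries labelled bbx14-1 and 1761, 1801 and 1745 in wild type, and its partner GPAT4 had 635, 859 and 728 in the libraries labelled bbx14-1 against 656, 821 and 646 in wild type. The log2 fold changes were 0.04 and 0.06 (limma adjusted p = 0.874 and 0.864), with all ranges overlapping. CYP86A4, a fatty acid hydroxylase gene 355 bases from GPAT4, averaged 24.3 ± 4.47 normalized counts in the libraries labelled bbx14-1 and 22.0 ± 14.6 in wild type (SD, n = 3 each) and was not called (0.30, 95% interval -0.66 to 1.27, limma adjusted p = 0.819).

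The half-transporters ABCG11 and ABCG12, which move wax and cutin precursors through the plasma membrane, had 2669, 2511 and 2550.0 and 2577, 2817 and 2655 normalized counts in the libraries labelled bbx14-1, against 2600.3, 2757 and 2674 and 2539, 2870.1 and 2824 in wild type. LTPG1 had 2155, 2360.1 and 2113 normalized counts in the libraries labelled bbx14-1 and 1908, 2251 and 2325 in wild type. The groups of all 3 genes overlapped. The log2 fold changes of -0.06 and -0.03 for the transporters and 0.04 for LTPG1 did not pass (limma adjusted p = 0.815, 0.907 and 0.903). The 95% intervals of these 3 genes lay between -0.23 and 0.23. MYB96, which activates wax genes under drought and abscisic acid, had 510.1, 434 and 471 normalized counts in the libraries labelled bbx14-1 and 424, 556 and 562 in wild type (log2 fold change -0.11, 95% interval -0.38 to 0.15, limma adjusted p = 0.722). Of the 26 tested genes that were not called, 21 had a 95% interval within 0.5 log2 units of 0, which bounds their change at this depth without showing that they were equal.

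The 10 genes under the limit were KCS7, KCS14, KCS15, KCS17, KCS18, KCS21, CER4, WSD1, MAH1 and SHN1. KCS7, KCS18 and SHN1 had 0 reads in all 6 libraries. If reads are independent counts, this allows up to 3 reads, or 2.40 to 3.77 normalized counts per library. Recovered reads were even in all 6 libraries for CER4, KCS6, KCS1 and other genes, so both reads of a fragment may have been counted. The limit in reads would then be higher, and the reads given below would stand for fewer independent fragments. KCS18 (FAE1) lengthens the fatty acids of seed oil, and SHN1 activates cuticle genes. KCS15 had 4, 8 and 17 reads in the libraries labelled bbx14-1, against 1, 0 and 0 in wild type. CER4, the reductase that makes primary alcohols of the wax, had 6, 20 and 14 reads in the libraries labelled bbx14-1 and 2, 2 and 0 in wild type. With every gene above 0 entered in the test both were called higher (limma adjusted p = 0.0228 for KCS15 and 0.0456 for CER4), beside 440 of 25338 genes. In that fit the count of listed genes called higher was 5 in place of 3. Both genes stood near the floor in wild type, so they add no support to the count. KCS15 overlaps AT3G52155, a more abundant gene on the opposite strand (mean 115 normalized counts), and the strand setting of the counting is not given. The ester synthase gene WSD1 and the alkane hydroxylase gene MAH1 had at most 2 reads in a library.

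Upstream windows of all 40 genes were searched for the same motifs. The L1 box occurred in 5 of 40 windows (12.5%), against 4.49% of 27443 windows of the same length before nuclear protein-coding genes. These were KCS9, KCS10, KCS18, ABCG11 and MYB96, none of them among the called genes. Their sites in the 4 genes that were measured above the limit are shown because the L1 box is known from genes of the epidermis, where the cuticle is made; capitals mark the box, and ABCG11 has a pair.
KCS9 (chr2:7050713-7050740, plus strand): cacattaaagTAAATGCAgacatatgct
KCS10 (chr2:11173315-11173342, minus strand): aaaattgtaaTAAATGCAaacataagat
ABCG11 (chr1:6142310-6142337, plus strand): ctattcatacTAAATGCAaaccatctat
ABCG11 (chr1:6142345-6142372, plus strand): cagactgcatTAAATGTAacaagtaaca
MYB96 (chr5:25081148-25081175, minus strand): agaaagagagTAAATGCAttttgctgtc
The G-box and the GCC box occurred in 0 of the 40 windows, against 6.49% and 1.87% of all windows, and the CCAAT box in 14 (35%), against 46% of all windows. These are matches of letters within 250 bases and say nothing of binding.

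Other genes of the same pathways were described from 5 lists of 65 genes, of which 64 were in the table, 55 were tested, 7 were called higher and 2 called lower (9 in all), beside 2.51% and 2.14% of all tested genes; 1 call in a list of 18 is near the 4.65% called overall. Plastid fatty acid synthesis, which feeds the elongases, had 1 of 18 genes called, the activator gene WRI1, which was lower with 96.7, 61.3 and 93.0 normalized counts in the libraries labelled bbx14-1 against 116, 173 and 139 in wild type (log2 fold change -0.77, limma adjusted p = 0.0493). This call was lost in 5 of the 6 fits without 1 library (limma adjusted p = 0.0553 to 0.232) and held without bbx14-1 replicate 1. With all libraries kept it was also lost with no filter, quantile normalization, voom and no variance trend (limma adjusted p = 0.0749, 0.0553, 0.0724 and 0.237). The further wax and elongation genes had 0 of 10 called, and 4 of them had an unadjusted limma p under 0.05, beside 16.7% of all tested genes. LTPG2, a lipid transfer protein gene named here after its values were seen, was nearest (log2 fold change 0.36, limma adjusted p = 0.0555). It passed with voom, with a mean of at least 50 and under quantile normalization (limma adjusted p = 0.045, 0.0491 and 0.0435), so each of these called 1 of 10. Of the 8 tested regulators, the homeodomain gene HDG1 was called lower (log2 fold change -0.36, limma adjusted p = 0.0454), a call that no fit without 1 library kept (limma adjusted p = 0.0791 to 0.212).

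Polyester genes of cutin and suberin held the remaining calls, all higher. The lists were chosen with earlier results of these data known, so their counts of calls are no independent support. In the cutin list 3 of 10 tested genes rose, with a median log2 fold change of 0.39 over the list. The uncalled ABCG13 passed the limit only through the libraries labelled bbx14-1 (15.8 ± 6.75 against 8.51 ± 8.78 normalized counts in wild type, mean ± SD, n = 3 each). With a mean of at least 50 required 3 of 8 genes were called, with a median of 0.31, beside 470 higher and 422 lower of all 15036 genes at that limit. LTL1, which encodes a lipase of the GDSL type, had 836, 1088 and 942 normalized counts in the libraries labelled bbx14-1 against 575, 543 and 472 in wild type, with no overlap (log2 fold change 0.85, limma adjusted p = 5.04e-05). HTH (HOTHEAD), an oxidoreductase of cutin monomers, rose by 0.57 and the hydroxylase gene CYP86A8 by 0.42 (limma adjusted p = 0.00287 and 0.0125), and CYP86A8 lost its call without WT replicate 2 or 3 (limma adjusted p = 0.0573 and 0.0591).

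In the suberin list 4 of 9 tested genes were called higher, with a median of 0.74. CYP86B1, one of the 4, and the uncalled FAR5 reached a mean of 10 only through the libraries labelled bbx14-1 (33.3 ± 17.7 against 5.82 ± 3.68 normalized counts in wild type for CYP86B1, and 24.0 ± 5.61 against 9.35 ± 2.42 for FAR5; SD, n = 3 each), so they had to differ and add no support to that count. With a mean of at least 50 required, 3 of 6 suberin genes were called higher, with a median of 0.59. This stood beside 470 higher and 422 lower of all 15036 genes at that limit. GPAT5, uncalled at that limit, reached a mean of 50 only through the libraries labelled bbx14-1. It had 73.4 ± 14.9 normalized counts there and 35.1 ± 15.3 in wild type (SD, n = 3 each). GPAT5 therefore adds no support to that median. ABCG6, an exporter of suberin precursors, had 144, 156 and 146 normalized counts in the libraries labelled bbx14-1 and 63.9, 57.8 and 64.5 in wild type, more than the spread of either group (log2 fold change 1.25, limma adjusted p = 0.000557). The feruloyl transferase gene ASFT (RWP1 in RefSeq) rose by 0.61 (limma adjusted p = 0.00557), the alcohol-forming reductase gene FAR1 by 0.57 with overlapping groups (limma adjusted p = 0.0298) and the hydroxylase gene CYP86B1 by 2.30 from few reads (limma adjusted p = 0.0242). LTL1, HTH, ASFT and ABCG6 stayed called without any 1 library. FAR1 lost its call without WT replicate 2 or 3 or bbx14-1 replicate 1 or 2 (limma adjusted p = 0.109 to 0.141), and CYP86B1 without WT replicate 1 or 3 or bbx14-1 replicate 2 or 3 (limma adjusted p = 0.0661 to 0.198).

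**Figure D4:**
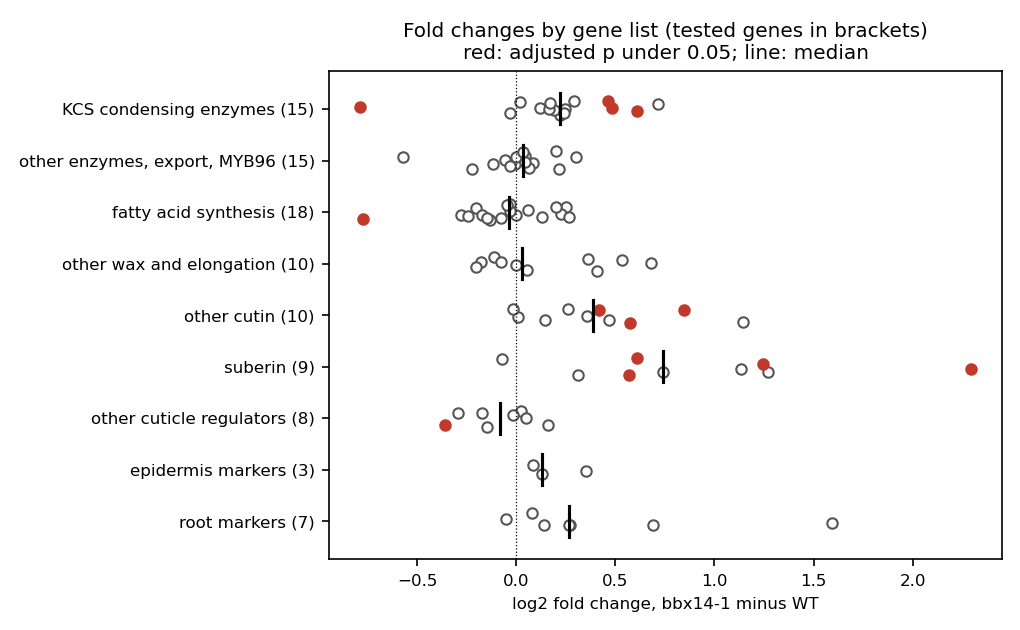
Log2 fold change (bbx14-1 minus WT) of each tested gene by list, with the number of genes tested in brackets, the median as a line and genes called at an adjusted p under 0.05 in red. The cutin and suberin lists have medians of 0.39 and 0.74, while fatty acid synthesis and the genes other than condensing enzymes centre near 0. ABCG13 (cutin) and CYP86B1 and FAR5 (suberin) reached the limit only through the libraries labelled bbx14-1, so their points add no support. With a mean of at least 50 required, the cutin and suberin medians were 0.31 and 0.59. GPAT5 (suberin) reached that higher limit only through the libraries labelled bbx14-1.

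Markers of cell types that carry these pathways were read beside these counts. The epidermal genes ATML1, PDF2 and PDF1 were all present and 0 of 3 were called by limma (1 at an unadjusted p under 0.05). Their log2 fold changes were all positive (0.13, 0.09 and 0.35, limma adjusted p = 0.508, 0.722 and 0.0708). PDF1 alone did not overlap between the groups. Summed normalized counts of the 3 genes were 5236 to 6441 in the libraries labelled bbx14-1 and 4807 to 5232 in wild type, a narrow separation. Of 8 root markers 7 were tested and 0 called (2 at an unadjusted p under 0.05), with sums of 1188 to 1426 in the libraries labelled bbx14-1 and 1055 to 1336 in wild type, with ESB1 at 0 in bbx14-1 replicates 2 and 3. Of the 7 tested, 6 had a positive log2 fold change, with a median of 0.27. The root hair genes COBL9 and LRX1 had higher counts in every library labelled bbx14-1 than in any wild-type library without passing the test (log2 fold changes 1.59 and 0.69, limma adjusted p = 0.0669 and 0.221). EXPA7, the other root hair gene of the list, overlapped between the groups (0.27, limma adjusted p = 0.813). The endodermal genes CASP1, CASP2 and MYB36, from the root layer that makes suberin, were at 0.08, 0.27 and -0.05 and overlapped between the groups. SCR overlapped as well (0.14). Of 6 genes of the stomatal lineage 5 were tested and 0 called (1 at an unadjusted p under 0.05), with sums of 1026 to 1128 in the libraries labelled bbx14-1 and 867 to 1001 in wild type. Of these 5 genes, 2 had a positive and 3 a negative log2 fold change, with a median of -0.04. KAT1 had the highest (0.46, limma adjusted p = 0.0634) and alone did not overlap between the groups, and SPCH had the lowest (-0.54). The 3 seed markers summed to 49.6 to 62.3 normalized counts in the libraries labelled bbx14-1 and to 107 to 557 in wild type, highest in WT replicate 1, and the storage protein gene CRC was called lower (log2 fold change -2.22, limma adjusted p = 0.00146, and -1.52, limma adjusted p = 0.0369, without WT replicate 1). The 3 mesophyll and 3 vascular markers had 0 calls and 0 genes at an unadjusted limma p under 0.05. The part of these marker differences in the results above was not tested.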

How the data were processed

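The deposited table, which the authors made, holds reads per gene divided by a size factor per library, per the name of the deposited table. Per the submitters' processing notes, Trimmomatic, FastQC, TopHat2 2.1.1, featureCounts and DESeq2 were used with build TAIR10; the sources used here do not give the strand setting or annotation release. Per the labels' protocols, libraries were depleted of ribosomal RNA and strand-specific. All values (100%) were whole multiples of the smallest value of their library within 0.01, so whole reads were recovered; 49.6% to 56.7% of them were from the plastid genome. Intervals and floors cover counting error or library spread only. Nothing states that replicates were grown separately, so p-values reflect spread among samples that may be technical.

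The test was limma (version 3.58.1, R version 4.3.3) with a variance trend. A pseudocount of 1 was added, and genes with a mean under 10 were dropped. It was checked on simulated data whose spread was set by the mean, so that check cannot judge the variance trend. The genes, the lists and the rules for naming genes were chosen with earlier results of these data known. All 30 tested genes are given values, by library where called or among the 2 most abundant of their role, and up to 3 called genes per list are named. FAR1 and the library values of KCS2, KCS5, KCS20 and ABCG11 were added after their values were seen. Positions, exon lengths and sequences are RefSeq TAIR10.1, matched by 36632 of 36917 identifiers; 8 named genes have a tested gene on the opposite strand, 0 of them called. No libraries of a group were alike within sampling noise (chi-square per degree of freedom at least 7.78). The alternatives tried are listed at the end.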

Additional observations from a re-analysis of the deposited data

How the results depend on the processing

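KCS19, KCS1 and KCS12 were called in the same direction under every alternative except limma without a variance trend, where 0 genes of the 30 were called higher and 0 lower, 28 of all tested genes were called in place of 883 (13 higher and 15 lower) and 1 of the 55 other pathway genes in place of 9. With no filter on low values 5 of the listed genes were called higher in place of 3, beside 440 of the 25338 genes entered. KCS15 and CER4 made the difference, with at most 2 reads in any wild-type library. The median of the listed genes was 0.15 in place of 0.10. Pseudocounts of 0.5 and 5, a mean of at least 50, quantile normalization and limma's voom on the recovered reads (898 genes called, chosen after seeing the data) kept the counts of 3 and 1. The planned edgeR and DESeq2 fits were not run, and voom stood in for them. Leaving out 1 library gave 525 to 766 calls over all genes (525 without WT replicate 1 and 577 without WT replicate 3), 2 to 4 higher and 1 lower among the 30, 4 to 7 among the other pathway genes (4 without WT replicate 3, 5 without WT replicate 2 or bbx14-1 replicate 2), and medians of 0.07 to 0.14. BBX14 ranged from 0.29 to 0.53 and passed when WT replicate 2 was left out (0.53, limma adjusted p = 0.0197), and likewise when bbx14-1 replicate 1 was (0.52, limma adjusted p = 0.0304).

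A replicate block in the fit gave 915 called genes, kept the calls of the 30 genes and ended those of WRI1 and HDG1 (limma adjusted p = 0.0551 and 0.0578) while GPAT5 of the suberin list gained one (limma adjusted p = 0.034), which left 8 calls in the other pathway lists. Deviations of libraries with the same number correlated at 0.042, 0.017 and -0.03, so the numbers were not taken as pairs.

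Uncalled genes near 0 changed sign. CER2 was at 0.011 under quantile normalization and 0.0067 with voom, and LACS2 and ABCG12 at 0.016 and 0.0046 under quantile normalization. Without 1 library the ranges were -0.0059 to 0.047 for KCS11, -0.029 to 0.081 for PAS2, -0.024 to 0.15 for CER10, -0.16 to 0.089 for CER2, -0.088 to 0.075 for LACS2, -0.013 to 0.79 for CYP86A4, -0.049 to 0.17 for GPAT4, -0.0020 to 0.11 for GPAT8, -0.087 to 0.0018 for ABCG12 and -0.052 to 0.090 for LTPG1. The cause of these changes was not tested. The tested genes under 50 normalized counts had the widest intervals, and the part of depth in this was not tested.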
